A study of Mus musculus with 15 samples.

Results

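The genes described here encode the core of interleukin-2 (IL-2) signalling through JAK kinases and STAT transcription factors in CD8+ T cells, together with its negative feedback regulators. They were chosen by symbol: the kinase gene Jak3, the transcription factor genes Stat3, Stat4, Stat5a and Stat5b, the feedback inhibitor genes Cish, Socs1, Socs2 and Socs3, and the kinase gene Pim1. All 10 had a row in both deposited tables, out of 11836 genes listed in either table, and all 10 were tested in every comparison.

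IL-2 binds a receptor made of the subunits IL-2Rα, IL-2Rβ and the common γ chain, whose cytoplasmic tails carry the kinases JAK1 and JAK3. These phosphorylate STAT5A and STAT5B, which enter the nucleus as dimers and switch on genes that include those for CIS, SOCS proteins and PIM1. CIS and the SOCS proteins bind activated receptors or JAK kinases and restrain further signalling, so their mRNAs are widely used as readouts of recent cytokine signalling in T cells. STAT4 acts chiefly downstream of the interleukin-12 (IL-12) receptor and STAT3 downstream of receptors such as those for interleukin-6, interleukin-10 and interleukin-21.

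RNA sequencing had been performed on cells of LCMV-P14 TCR transgenic mice, whose T cells carry one antigen receptor specific for the viral peptide gp33-41, so 1 T cell receptor stands for all cells. The CD8 table held 3 groups with 3 biological replicates each, from female mice 9 to 13 weeks old: naive CD8+ T cells taken ex vivo from lymph nodes, cells activated over 24 h (TCR activated), and cells activated in the same way with 10 µM IC87114, an inhibitor of the PI3K p110δ kinase (PI3Kdi). The activating medium held gp33-41 at 100 ng/ml, with IL-12 at 2 ng/ml beside IL-2 at 20 ng/ml. Each replicate was a pool of 3 mice divided between these conditions, and the cells were sorted as CD8+ (the naive ones also as CD62L high and CD44 low) before RNA extraction. The CTL table held 2 groups with 3 replicates each: cytotoxic T lymphocytes (CTL) activated for 48 h, grown for 4 days with IL-2 at 20 ng/ml, washed on day 6 and then kept for 24 h with the same dose of IL-2 or with none. The CTL replicates carry a biological replicate tag in the labels, like the CD8 ones. Whether they came from separate mice, and whether they were sorted, is not given in the sources used here. Their p-values therefore measure the spread between these samples, which need not be a spread between mice. Exogenous IL-2 was thus present in both activated CD8 groups and in the past of both CTL groups, and the only contrast in which it was removed is the CTL one. In replicates 2 and 3 of the CTL with IL-2 the treatment label gives a different interleukin from the title, and the title was used.

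Values are FPKM, read fragments scaled by exon length and library size, which are per length and therefore comparable between genes within a table. The tables were normalised separately, so levels set across them carry no test. Depth was read from the spacing of low values and came to 11.3 to 14.6 M reads (M, mega) in the 9 CD8 libraries and 9.7 to 12.6 M reads in the 4 CTL libraries where it could be determined. All 6 CD8 T cell markers (Cd3d, Cd3e, Cd3g, Cd8a, Cd8b1, Cd2) were present in every group, with summed levels of 3628 to 3922 FPKM in naive cells, 708 to 866 after activation, 938 to 1094 with PI3Kdi, 1231 to 1298 in CTL with IL-2 and 2248 to 2468 without it. The summed B cell markers (4 of 6 listed, Pax5 and Ebf1 without a row) were 20.9 to 26.3 FPKM in naive cells, 4.63 to 7.12 after activation and 3.3 to 4.58 with PI3Kdi. Among CTL, 3 of 8 myeloid and dendritic cell markers had a row (Itgax, Itgam and Fcgr3), and their sum was 2.05 to 3.11 FPKM with IL-2 and 22.5 to 24.1 without it, while Lyz2, Csf1r, Cd14, Adgre1 and Flt3 had none; Cd79b was 2.74 to 6.3 FPKM with IL-2 and 10.8 to 20.6 without. In the CD8 table Itgam was the 1 myeloid marker listed and reached 0.3 FPKM at most. The CD4 T cell markers had 3 of 4 in each table, Cd4 having no row in the CD8 table and Foxp3 none in the CTL table, and their sums were 3.25 to 6.26 FPKM in naive cells, 18.2 to 25.3 after activation, 14.8 to 28.6 with PI3Kdi, 37.3 to 54.3 in CTL with IL-2 and 45.6 to 58.4 without. These sums were mostly Ccr4 and, in CTL, Zbtb7b. Cd4 itself was 0.05 to 0.39 FPKM in CTL with IL-2 and 0.92 to 1.92 without. Foxp3 reached 0.93 FPKM at most in the CD8 table. Of the NK cell markers 0 of 4 had a row in the CD8 table, and Klrb1c, the 1 in the CTL table, was 1.2 to 1.88 FPKM with IL-2 and 2.17 to 3.41 without. The part of these other cell types in the results was not tested, and in bulk RNA fewer cells of a type and less RNA per cell cannot be told apart.

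The members did not move together. Cish, Pim1 and Socs2 rose on TCR activation and fell when CTL lost IL-2, and with PI3Kdi Socs2 rose by 2.72 on the log2 scale while Cish and Pim1 read -0.41 and -0.76, under the 2-fold limit. Stat5a rose on activation and fell with PI3Kdi, whereas Stat4 fell on activation and rose in CTL without IL-2. Socs3 and Jak3 were called in none of the 4 comparisons. A gene was called when its adjusted p (limma, Benjamini-Hochberg over all genes of the table) was under 0.05 and its fold change was above 2 or below 0.5.

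In TCR activated against naive cells, 4 of 10 members were called higher (Cish, Socs2, Pim1 and Stat5a) and 1 lower (Stat4), where 25% of all 11262 genes were called higher and 23.7% lower. Socs2 was under 1 FPKM in every naive library, so its row had passed the authors' filter on low counts through the activated groups. Its higher call against naive cells follows from that filter, without and with PI3Kdi. At an adjusted p under 0.05 with no limit on the fold, 6 of 10 members passed, against 80.8% of all genes. With PI3Kdi against TCR activation alone, 1 member was called higher (Socs2, against 3.04% of all genes) and 1 lower (Stat5a, against 2.1%). Without the fold limit 7 members passed in that comparison, 6 of them lower, where 17.5% of all genes passed. The median log2 fold change of the members was -0.40 there, beside -0.01 over all genes. In cells activated with PI3Kdi against naive cells 3 members were called higher and 1 lower (background 23.6% and 21.3%), and 8 passed without the fold limit against 79.1% of all genes. In CTL without IL-2 against CTL in IL-2, 1 member was called higher (Stat4, against 14.3% of all 11211 genes) and 4 lower (Cish, Socs1, Socs2 and Pim1, against 13.9%), and 9 passed without the fold limit against 71.9%. All comparisons within the CD8 cells share their libraries, so their counts are not independent of one another.

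**Figure D1:**
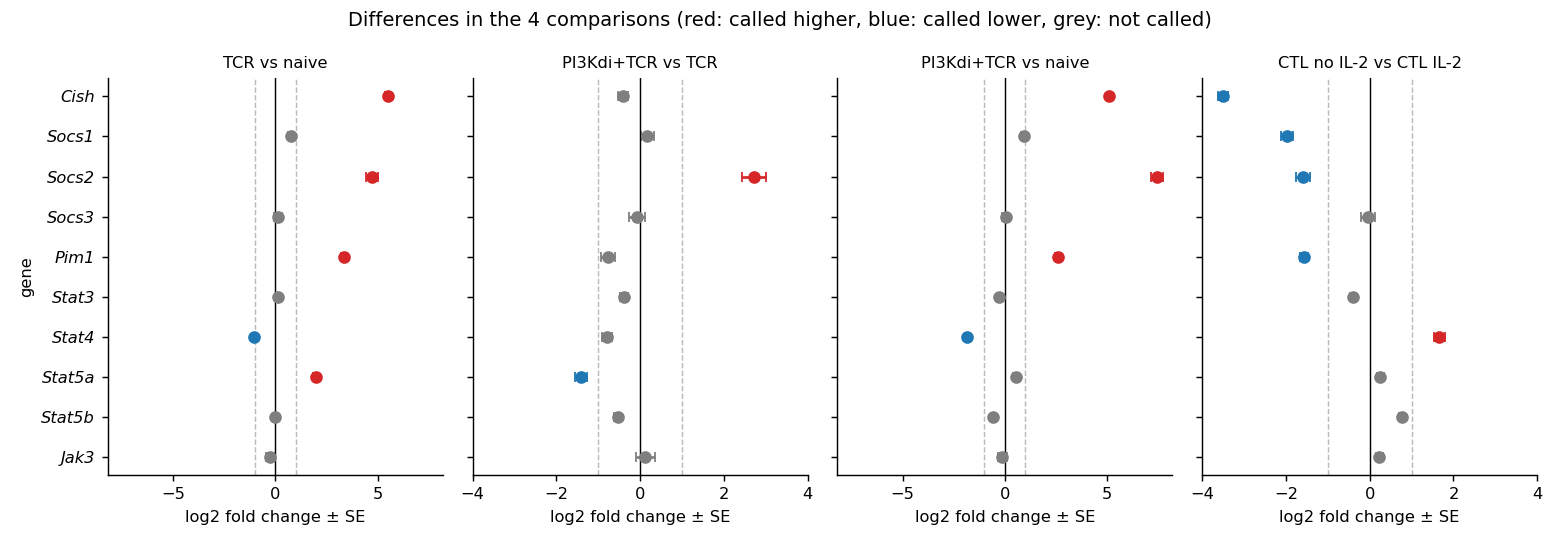
Log2 fold change on the log2(FPKM + 0.1) scale with its standard error (x axis) of the 10 genes (y axis) in each of the 4 comparisons, 3 libraries a group, with dashed lines at 2-fold. Red points are called higher, blue lower and grey not called; Socs2 is the only red point with PI3Kdi against TCR activation (2.72), and Cish has the lowest value in CTL without IL-2 (-3.50).

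Cish encodes CIS, an inhibitor that binds activated cytokine receptors and is a classical STAT5 target. It was listed at 2.14, 1.59 and 1.85 FPKM in the naive libraries and at 94.3, 83.4 and 88.1 after 24 h of TCR activation, a 47.6-fold higher mean. The groups did not overlap, and the log2 fold change was 5.51 ± 0.12 (SE, n = 3 per group; limma adjusted p = 2.6e-11). With PI3Kdi the libraries read 57.9, 72.3 and 70.0 FPKM, each below every library activated without the inhibitor. That difference was small, -0.41 ± 0.12 on the log2 scale (limma adjusted p = 0.04), and was not past the threshold with a replicate block (adjusted p = 0.058) or when any single replicate was left out (adjusted p 0.1 to 0.17). In CTL kept in IL-2 Cish stood at 199, 242 and 218 FPKM, and after 24 h without IL-2 at 20.7, 21.5 and 16.3. This 11.3-fold lower level (log2 fold change -3.50 ± 0.12, limma adjusted p = 7.9e-08) was the largest fall among the members in that comparison, and it still left the mean at 19.5 FPKM.

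Pim1 encodes a serine/threonine kinase that promotes survival and growth and is induced by STAT5. It read 17.0, 25.0 and 26.9 FPKM in naive cells, 237, 220.0 and 237 in TCR activated cells, and 119, 133 and 159 in cells activated with PI3Kdi. The 3 groups did not overlap. The mean was 10.1-fold higher on activation (log2 fold change 3.35 ± 0.16, limma adjusted p = 4.9e-09). With the inhibitor Pim1 was 1.69-fold lower than without it (-0.76 ± 0.16, limma adjusted p = 0.0078), under the 2-fold limit, and without replicate 2 the adjusted p was 0.11. CTL in IL-2 held 217, 245 and 225 FPKM and CTL without IL-2 held 83.4, 78.8 and 69.3. Pim1 thereby fell 2.97-fold (-1.57 ± 0.09, limma adjusted p = 7.3e-07), so its level without IL-2 remained above that of any naive library, in tables normalised separately. Its relative Pim2 followed the same directions at activation and IL-2 withdrawal: it rose from a mean of 85.8 to 470.1 FPKM (log2 fold change 2.46 ± 0.13, limma adjusted p = 9.3e-09), was 454 with PI3Kdi (-0.06 against activation alone, adjusted p = 0.79), and fell from 103 to 42.7 FPKM in CTL (-1.27 ± 0.10, limma adjusted p = 3.2e-06).

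Cish and Pim1 had the most similar profiles among the members, with a Pearson r of 0.98 over the 15 libraries after each table was centred. For that reason 250 bases before a RefSeq start of each (GRCm38.p6) are printed, for Pim1 the upstream one of its 2 starts, together with the stretch of Socs3 that holds the only match to the core STAT recognition letters among the members' windows.

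Cish, chr9:107296409-107296658, plus strand: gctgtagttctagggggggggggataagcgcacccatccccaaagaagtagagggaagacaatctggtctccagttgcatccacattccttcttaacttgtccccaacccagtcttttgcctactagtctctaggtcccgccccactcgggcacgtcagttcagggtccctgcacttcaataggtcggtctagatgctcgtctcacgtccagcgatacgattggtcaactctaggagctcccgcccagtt

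Pim1, chr17:29490535-29490784, plus strand: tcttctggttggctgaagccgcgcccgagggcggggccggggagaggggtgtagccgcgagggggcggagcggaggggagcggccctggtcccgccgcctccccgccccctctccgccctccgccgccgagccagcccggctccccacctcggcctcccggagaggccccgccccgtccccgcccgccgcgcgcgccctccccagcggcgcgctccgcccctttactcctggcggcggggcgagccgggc

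Socs3, chr11:117969502-117969530, minus strand: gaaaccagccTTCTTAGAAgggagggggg

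The letters searched were TTCNNNGAA, which is its own reverse complement and so covers both strands. They occurred in 1 of the 9 members with a promoter window, in Socs3, where the capitals mark the match from 154 to 146 bases before the start, within the annotated span of the gene. Of all 32851 RefSeq windows of this length 7.02% held a match, as did 8.13% of 27025 genes. Socs2 had no window in the table used. A match or its lack in this window is a description of the letters and bears on no binding.

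Socs2 encodes a SOCS protein best known for restraining growth hormone signalling. It was close to the detection limit in naive cells, at 0.06, 0.08 and 0.03 FPKM, which corresponds to about 1 to 3 reads a library. TCR activated cells held 3.77, 3.07 and 5.49 FPKM and cells activated with PI3Kdi held 19.1, 25.0 and 40.4, so every library with the inhibitor exceeded every library without it. This was the only member that rose with PI3Kdi: the mean was 6.85-fold higher (log2 fold change 2.72 ± 0.28, limma adjusted p = 1.1e-04), and leaving out any one replicate gave 2.59 to 2.92. Against naive cells the fitted log2 fold change was 4.72 ± 0.28 without and 7.44 ± 0.28 with the inhibitor, but the naive value rests on 6 reads in all. The row had passed the authors' filter on low counts through the activated groups. The direction against naive cells follows from that filter, and no p-value is given for it. From about 431 reads in TCR activated cells, the ratio to naive cells, scaled to library size, was 69.0 (exact 95% interval 31.4 to 189), and from 2942 reads with PI3Kdi it was 483 (222 to 1317). These intervals cover counting error only. In CTL the levels were 62.5, 57.3 and 40.7 FPKM with IL-2 and 17.5, 20.3 and 14.8 without it. Socs2 fell 3.05-fold (-1.59 ± 0.17, limma adjusted p = 2.2e-05), with no overlap.

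Socs1 encodes an inhibitor that binds JAK kinases directly and restrains interferon-γ and IL-2 signalling. Naive cells held 15.4, 16.2 and 21.0 FPKM, TCR activated cells 29.3, 24.0 and 36.7, and cells activated with PI3Kdi 33.5, 30.5 and 36.2. Both activated groups lay above the naive one and overlapped each other. Socs1 was 1.71-fold higher on activation (log2 fold change 0.76 ± 0.16, limma adjusted p = 9.2e-04) and 1.90-fold higher with PI3Kdi than in naive cells (0.94 ± 0.16, limma adjusted p = 2.2e-04), both under the 2-fold limit, although without replicate 3 the latter reached 1.01 and was called. The difference with PI3Kdi against activation alone was 0.17 ± 0.16 (limma adjusted p = 0.5). In CTL the libraries read 80.1, 98.7 and 73.5 FPKM with IL-2 and 18.1, 20.3 and 25.8 without. Socs1 thus fell 3.93-fold (-1.97 ± 0.14, limma adjusted p = 2.5e-06) in the comparison in which only IL-2 was removed.

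Socs3 encodes the inhibitor of gp130-coupled receptors such as that for interleukin-6. It was 27.2, 30.4 and 43.9 FPKM in naive cells, 47.4, 30.7 and 31.8 after activation, and 35.0, 34.6 and 32.2 with PI3Kdi, and the 3 groups overlapped. The log2 fold changes were 0.12 ± 0.19 on activation (limma adjusted p = 0.58) and -0.08 ± 0.19 with the inhibitor (adjusted p = 0.81). CTL held 7.50, 9.94 and 10.2 FPKM with IL-2 and 8.27, 7.70 and 10.9 without, also overlapping (-0.04 ± 0.16, adjusted p = 0.83). The sign of these small values changed when single replicates were left out. Among the 4 feedback inhibitor genes Socs3 was therefore the one with no call in any comparison, while its level was lower in every CTL library than in every CD8 library, across tables that were normalised separately.

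**Figure D2:**
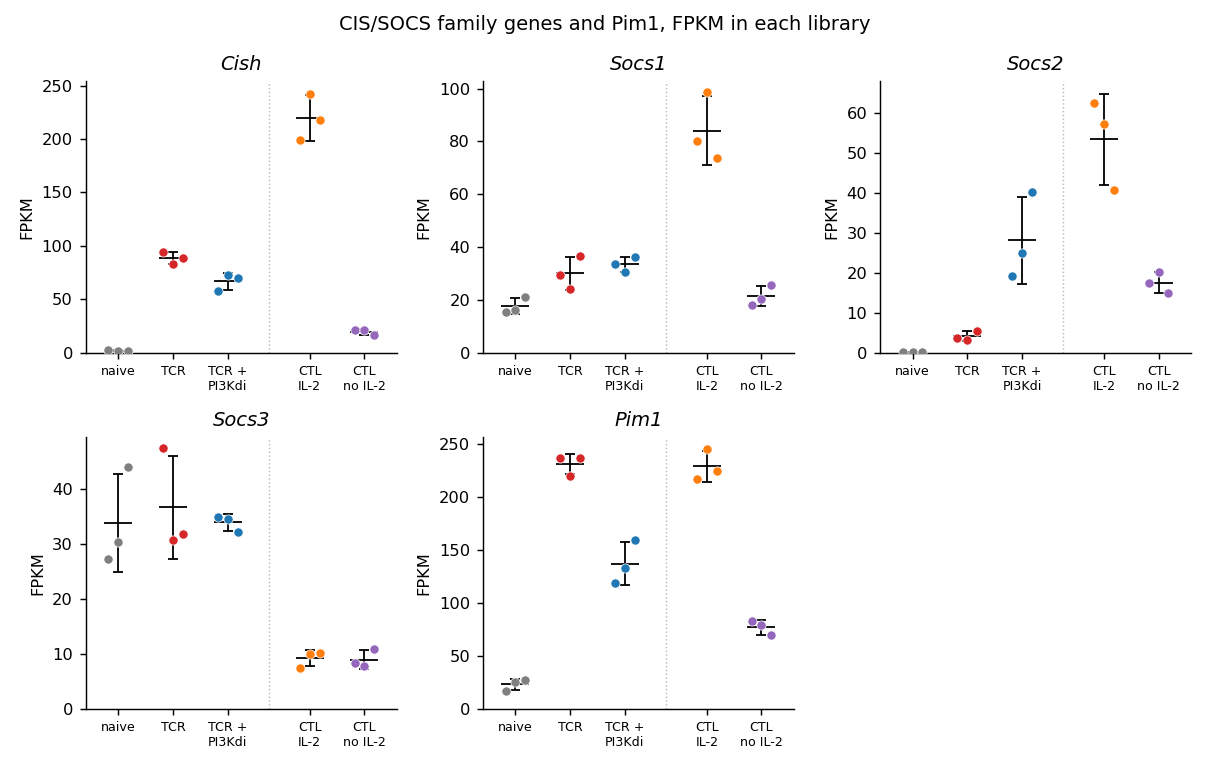
FPKM (y axis, linear from 0) of Cish, Socs1, Socs2, Socs3 and Pim1 in each library of the 5 groups (x axis), with the mean and SD as a bar and whiskers (n = 3), and a dotted line between the separately normalised tables. Cish and Pim1 are lower in all 3 PI3Kdi libraries than in the TCR libraries, Socs2 is higher in all 3 (19.1 to 40.4 against 3.07 to 5.49 FPKM), and Cish, Socs1, Socs2 and Pim1 are each lower in all 3 CTL libraries without IL-2.

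Stat5a and Stat5b, neighbouring genes on chromosome 11 that encode closely related factors, behaved differently. Stat5a was 24.9, 28.2 and 30.6 FPKM in naive cells, 112, 100.2 and 116 after TCR activation, and 35.1, 36.8 and 52.5 with PI3Kdi. The 3 groups did not overlap, with the inhibitor group closer to the naive one. Stat5a rose 3.91-fold on activation (log2 fold change 1.97 ± 0.14, limma adjusted p = 1.7e-07) and was 2.63-fold lower with PI3Kdi than without it (-1.41 ± 0.14, limma adjusted p = 9.2e-05), the only member called lower with the inhibitor. With PI3Kdi it was still 1.49-fold above naive cells (0.55 ± 0.14, limma adjusted p = 0.0042). CTL held 14.6, 15.9 and 14.7 FPKM with IL-2 and 18.3, 18.6 and 17.2 without, a difference of 0.26 ± 0.09 (limma adjusted p = 0.021) that was not past the threshold without replicate 1 or without replicate 2 (adjusted p up to 0.1).

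Stat5b was flat on activation, at 46.4, 46.9 and 46.8 FPKM in naive cells and 45.1, 49.1 and 42.4 in TCR activated cells (log2 fold change -0.04 ± 0.08, limma adjusted p = 0.67). With PI3Kdi it read 30.6, 30.8 and 32.5, below every other library of the table. The difference from activation alone was -0.54 ± 0.08 (limma adjusted p = 9.3e-04) and that from naive cells -0.58 ± 0.08 (limma adjusted p = 3.5e-05), neither reaching 2-fold, and the first had an adjusted p of 0.059 without replicate 2. In CTL it was 21.7, 21.7 and 20.8 FPKM with IL-2 and 36.0, 35.9 and 38.0 without, 1.71-fold higher (0.77 ± 0.07, limma adjusted p = 1.3e-05).

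The ratio of Stat5a to Stat5b, a measure chosen after the values had been seen, was 0.536, 0.601 and 0.654 in naive cells, 2.47, 2.04 and 2.72 in TCR activated cells, and 1.15, 1.19 and 1.61 with PI3Kdi. In CTL it was 0.672, 0.732 and 0.704 with IL-2 and 0.508, 0.517 and 0.452 without. Stat5a was thus the more abundant of the pair only in the 6 activated libraries, and no groups overlapped within a table. The exact two-sided permutation p was 0.1 for each of the 4 comparisons, the smallest that 3 against 3 libraries can give. The sum of both was 154.65 ± 4.69 FPKM (SD, n = 3) on activation and 72.8 ± 10.6 with PI3Kdi, beside 74.6 ± 3.08 in naive cells (exact permutation p = 0.8 for PI3Kdi against naive). In CTL the sum was 36.4 ± 1.04 FPKM with IL-2 and 54.6 ± 0.475 without. Of the 75-base windows in the exons of Stat5a 9.27% also occurred in Stat5b, and 7.08% of those of Stat5b in Stat5a. Some reads of the pair may therefore not have been placed in one gene, which was not tested.

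**Figure D3:**
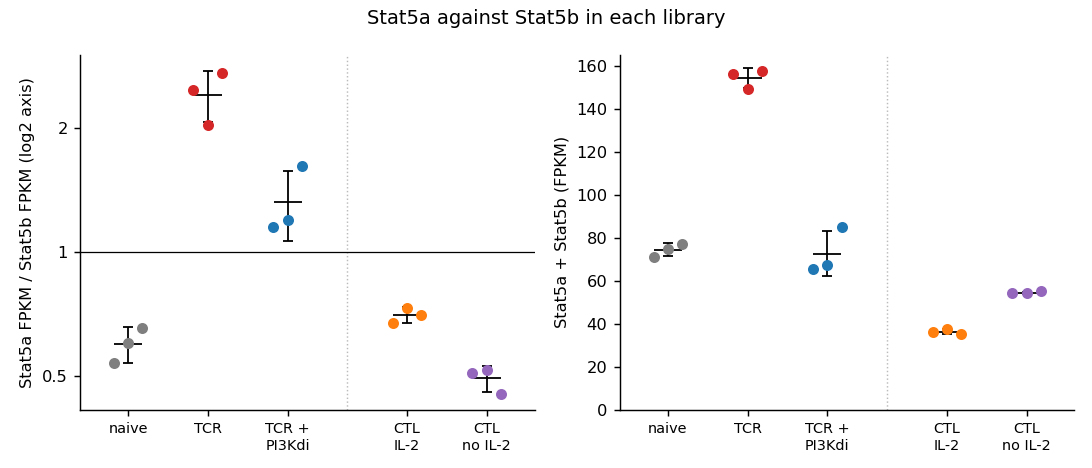
Left, the ratio of Stat5a to Stat5b FPKM on a log2 axis; right, their sum in FPKM, in each library of the 5 groups (x axis), with mean and SD (n = 3). The ratio is above 1 in the 6 activated CD8 libraries (1.15 to 2.72) and below 1 in the other 9, and the sum with PI3Kdi (65.7 to 85.0 FPKM) overlaps that of naive cells (71.3 to 77.4 FPKM).

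Stat4 moved in the direction opposite to Cish in all 3 comparisons in which it was called. It stood at 78.3, 71.5 and 78.5 FPKM in naive cells, 31.4, 43.0 and 36.8 after activation, and 20.4, 21.6 and 21.7 with PI3Kdi, again with no overlap. Stat4 fell 2.05-fold on activation (log2 fold change -1.05 ± 0.11, limma adjusted p = 3.4e-06), close to the limit, and without replicate 1 the value was -0.91 and not called. With PI3Kdi it was 1.75-fold lower than without (-0.79 ± 0.11, limma adjusted p = 6.6e-04), under the 2-fold limit, and 3.58-fold lower than in naive cells (-1.84 ± 0.11, limma adjusted p = 3.8e-08). CTL held 36.0, 36.3 and 42.2 FPKM with IL-2 and 108, 109 and 149 without, so Stat4 rose 3.20-fold (1.66 ± 0.13, limma adjusted p = 3.7e-06). It was the only member called higher after IL-2 withdrawal.

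Stat3 varied less. It read 69.2, 68.2 and 80.9 FPKM in naive cells and 87.4, 79.1 and 71.5 on activation, overlapping (0.12 ± 0.10, limma adjusted p = 0.25), and 60.5, 57.6 and 62.3 with PI3Kdi, below every other library of the table. The difference with the inhibitor was -0.39 ± 0.10 against activation alone (limma adjusted p = 0.017), with an adjusted p of up to 0.21 without replicate 1 or 2, and -0.27 ± 0.10 against naive cells (limma adjusted p = 0.023), with one of up to 0.098 without replicate 2 or 3. In CTL it was 70.6, 75.3 and 76.4 FPKM with IL-2 and 55.2, 56.8 and 55.8 without, 1.33-fold lower (-0.40 ± 0.07, limma adjusted p = 5.9e-04). None of these values reached 2-fold.

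Jak3, the kinase that binds the common γ chain, was 61.5, 52.1 and 79.2 FPKM in naive cells, 78.4, 47.0 and 41.1 after activation, and 66.1, 59.8 and 49.8 with PI3Kdi. The TCR activated replicates spanned a wider range than either other group and overlapped both. The log2 fold changes were -0.25 ± 0.22 on activation (limma adjusted p = 0.32) and 0.13 ± 0.22 with the inhibitor (adjusted p = 0.75). CTL held 60.6, 70.7 and 68.8 FPKM with IL-2 and 74.5, 83.7 and 76.9 without (0.23 ± 0.09, limma adjusted p = 0.033), a difference that lost the threshold when any single replicate was left out (adjusted p 0.06 to 0.13).

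**Figure D4:**
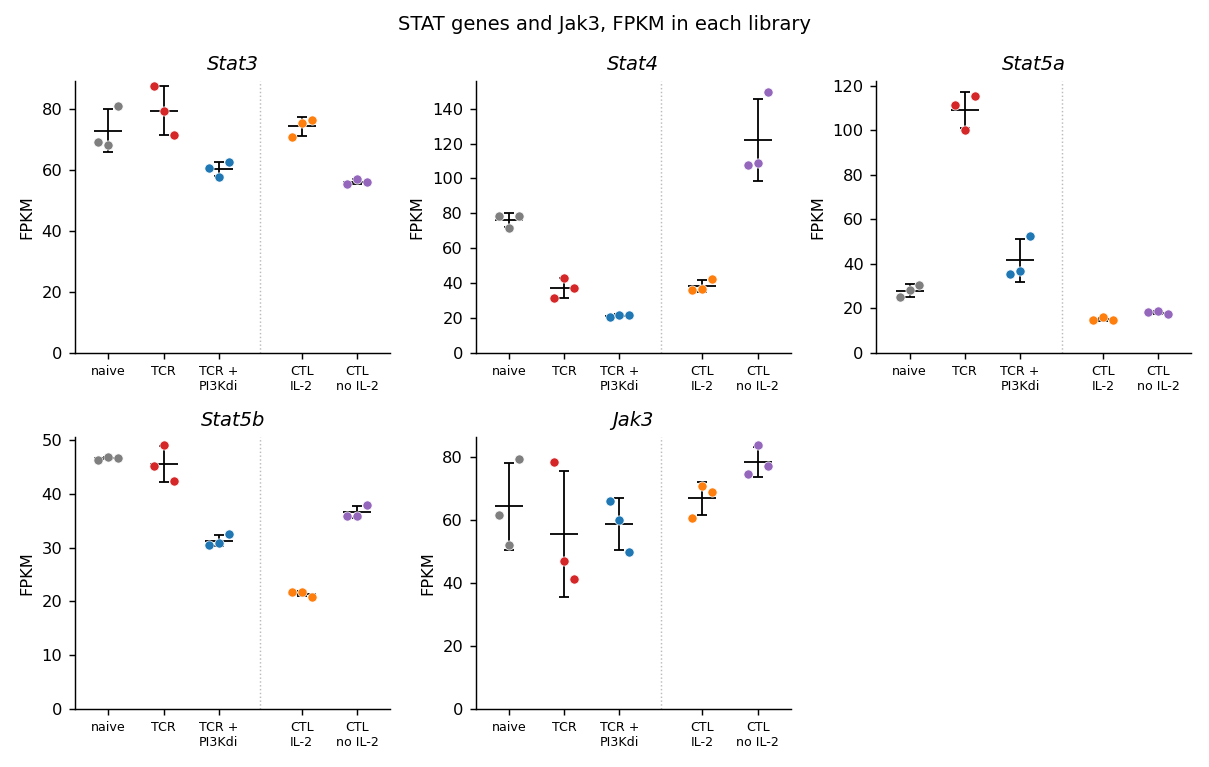
FPKM (y axis, linear from 0) of Stat3, Stat4, Stat5a, Stat5b and Jak3 in each library of the 5 groups (x axis), with mean and SD (n = 3) and a dotted line between the separately normalised tables. Stat5a peaks in TCR activated cells (100.2 to 116 FPKM), Stat4 is lowest with PI3Kdi (20.4 to 21.7) and highest in CTL without IL-2 (108 to 149), and Jak3 overlaps between the CD8 groups.

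The positions of the members (GRCm38.p6, the patch release of mm10, the build named in the labels) were chr9:107296659-107302784 for Cish, chr16:10783808-10785536 for Socs1, chr10:95383903-95417321 for Socs2, chr11:117966079-117970336 for Socs3 and chr17:29490785-29496111 for Pim1. Stat5b (chr11:100780731-100859004), Stat5a (chr11:100859351-100885169) and Stat3 (chr11:100886806-100939594) lie side by side, and Stat4 (chr1:51987106-52107189) and Jak3 (chr8:71676383-71690577) elsewhere. Of these genes 5 overlap another annotated gene (Socs2 with Gm33230, Stat3 with Gm46295, Stat4 with Gm3940 and Gm31812, Pim1 with Gm26885 and Jak3 with Insl3). The kit marked the strand, and whether the counting used it is not given in the sources used here, so reads of overlapping genes on opposite strands may not have been separated.

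Il2ra, the gene of the high-affinity IL-2Rα chain, was 0.63, 0.54 and 0.87 FPKM in naive cells, 652, 517 and 501 after activation, and 558, 529 and 603 with PI3Kdi. The 2 activated groups overlapped (0.03 ± 0.15, limma adjusted p = 0.93). Il2ra was under 1 FPKM in every naive library, so its row may have passed the authors' filter on low counts through the activated groups. Whether it did was not tested, and its higher level on activation is given as values alone. In CTL Il2ra fell from 554, 524 and 445 FPKM to 108, 106 and 82.1 without IL-2 (-2.37 ± 0.12, limma adjusted p = 4.7e-07). Il2rb, the signalling β chain, rose on activation from a mean of 82.9 to 256.5 FPKM (1.63, limma adjusted p = 4.1e-08) and was 188 with PI3Kdi (-0.44, adjusted p = 0.012, under 2-fold). In CTL Il2rb was 553 FPKM with IL-2 and 303 without (-0.87, limma adjusted p = 2.5e-05, under 2-fold). Il2rg, the common γ chain, fell on activation from 648.5 to 216.6 FPKM (-1.59, limma adjusted p = 1.9e-07), read 257 with PI3Kdi (0.26, adjusted p = 0.16), and was 343 and 369.9 in CTL with and without IL-2 (0.12, adjusted p = 0.28).

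Il7r, the gene of the interleukin-7 receptor α chain that marks resting and memory cells, went the other way. It was 81.9, 80.4 and 88.3 FPKM in naive cells, 12.4, 9.82 and 5.94 after activation, and 25.3, 28.7 and 38.3 with PI3Kdi. Il7r fell on activation (-3.20, limma adjusted p = 1.4e-07) and was higher with PI3Kdi than without (1.74 ± 0.23, limma adjusted p = 4.8e-04). In CTL it rose from 61.9, 50.1 and 26.6 FPKM to 430, 414 and 388 without IL-2 (3.23 ± 0.25, limma adjusted p = 3.4e-06).

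**Figure D5:**
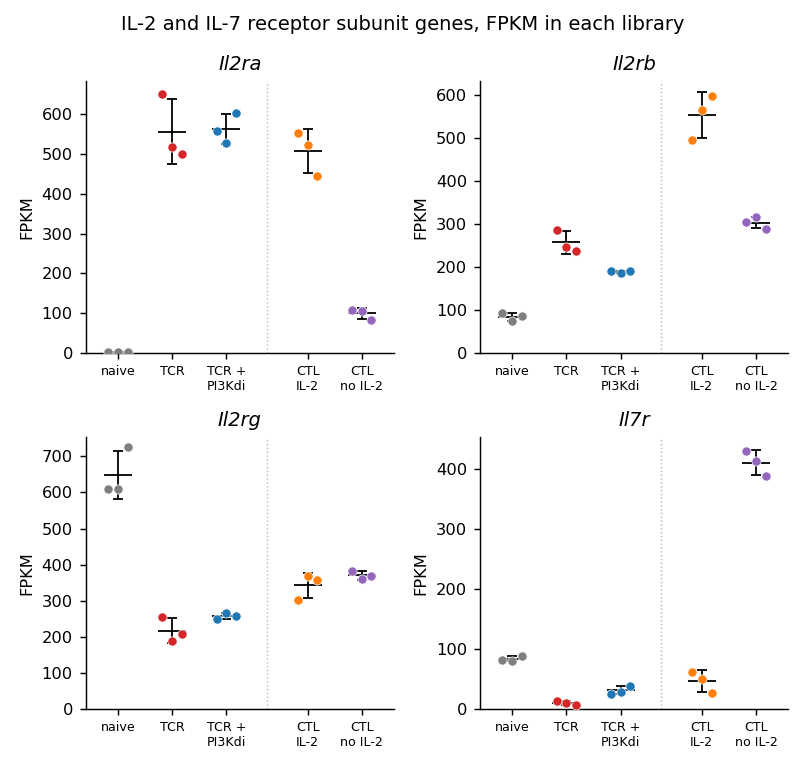
FPKM (y axis, linear from 0) of Il2ra, Il2rb, Il2rg and Il7r in each library of the 5 groups (x axis), with mean and SD (n = 3) and a dotted line between the separately normalised tables. Il2ra overlaps between the activated groups (501 to 652 and 529 to 603 FPKM) and drops in CTL without IL-2 (82.1 to 108), where Il7r is highest (388 to 430).

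Of 24 listed cytokine receptor subunits 20 had a row in each table. On activation 6 were called higher and 10 lower, beside 25% and 23.7% of all genes, with a list median of -1.25 beside 0.01 over all genes. Il2ra is 1 of the 6, and its row may be in the table through the activated groups. The other changes were led by Il6ra (61.5 to 1.34 FPKM, -5.42), Il12rb2 (4.05 to 135 FPKM, 4.99) and Ifngr2 (27.3 to 2.57 FPKM, -3.38). With PI3Kdi, where 3.04% of all genes were called higher and 2.1% lower, 2 were called higher, Il6ra (1.34 to 6.02 FPKM, 2.07, limma adjusted p = 1.5e-05) and Il7r, and 3 lower, Il18r1 (-1.63, adjusted p = 0.03), Il18rap (-1.42, adjusted p = 0.021) and Il15ra. None of these 3 was called lower without replicate 1 or without replicate 2, with 0 lower calls in each case. In CTL without IL-2 (14.3% and 13.9% of all genes), 7 were called higher, led by Il6ra (0.043 to 2.25 FPKM), Il7r and Ifnar2 (13.9 to 37.0 FPKM, 1.40), and 3 lower, namely Il2ra and both IL-12 receptor genes, Il12rb1 and Il12rb2. Il6ra was under 1 FPKM in every library with IL-2, so its call follows from the filter.

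Ligands of JAK-coupled receptors had 9 of 18 listed genes in the CD8 table and 8 in the CTL table. Of the 9, 8 were under 1 FPKM in every naive library and so had passed the authors' filter on low counts through the activated groups, and their higher level on activation follows from that filter and is given as values alone. Ifng (interferon-γ) had means of 0.087 FPKM in naive and 2179 in TCR activated cells, and Lif 0.067 and 119.8. Il2, Il3, Il10, Il21, Il22 and Il24 had blank cells in every naive library, taken as 0, so no fold is given for them there, and Il3 reached 20.5 FPKM. IL-2 itself was blank in every naive library, and stood at 4.15, 9.35 and 18.8 FPKM after activation and at 2.46, 3.20 and 3.05 with PI3Kdi. Il2 was lower with the inhibitor (-1.61, limma adjusted p = 0.021), with no overlap. With PI3Kdi 7 were called lower, where 2.1% of all genes were called lower and 3.04% higher. They were led by Il3 (20.5 to 0.15 FPKM, -6.42) and Ifng (2179 to 32.4 FPKM, -6.08, limma adjusted p = 5.9e-09), and then Il22 (-4.05) and Il24 (-3.36). Il3, Il22 and Il24 were under 1 FPKM in every naive and every PI3Kdi library. These 3 were in the table through the TCR activated group, so their falls follow from the filter. Ifng, Il2, Osm and Lif were above 1 FPKM in every PI3Kdi library. Il3 was blank in 1 and Il22 in 2 of the PI3Kdi libraries, so their values depend on the pseudocount. Il21, an activator of STAT3, was the 1 called higher, from 7.53, 6.05 and 4.24 to 21.5, 13.1 and 8.57 FPKM, and was not called without replicate 1 or without replicate 2. Without replicate 2, 4 ligands were called lower. In CTL 6 of the 8 were under 1 FPKM in every library without IL-2. They may be in the table through the group with IL-2, so the number that fell may follow from the filter. The largest falls there were in Il10 (79.0 to 0.267 FPKM, -7.78), Il24 (44.2 to 0.203, -7.24), Lif (90.6 to 1.71, -5.68) and Ifng (21.3 to 0.763, -4.63).

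The other JAK-STAT components were 28 genes for kinases, STATs, phosphatases and adaptors. On activation 3 were called higher and 11 lower, beside 25% and 23.7% of all genes, among them Sh2b2 (0.02 to 1.85 FPKM), Sh3kbp1 (144 to 25.0, -2.52) and Jak1, the partner of JAK3 (275.3 to 54.8 FPKM, -2.33, limma adjusted p = 4.8e-10). Sh2b2 was under 1 FPKM in every naive library, so its call follows from the filter on low counts. With PI3Kdi limma called 0 of 28, beside 3.04% of all genes higher and 2.1% lower, where 10 had an unadjusted and 4 an adjusted p under 0.05, with a list median of 0.04. In CTL, where 14.3% of all genes were called higher and 13.9% lower, 27 components had a row. Sh3kbp1 (39.3 to 95.6 FPKM, 1.28) and Jak1 (110.3 to 266.6, 1.25) were called higher without IL-2, and Pim3 (28.5 to 5.44, -2.37) and Pim2 lower.

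Of 26 genes besides the members that are reported in general as STAT5 targets, all 26 had a row in both tables. Il2ra, Il7r, Il4ra, Lif, Osm and Pim2 also stand in the lists above, so the counts of the lists are not independent. On activation 14 were called higher and 6 lower, beside 25% and 23.7% of all genes. Of the 26, 4 were under 1 FPKM in every naive library: Gzmb (granzyme B), Il2ra, Lif and Prdm1. They may be in the table through the activated groups, which was not tested, so no weight is placed on their higher calls. Gzmb had means of 0.407 and 3147 FPKM and Lif of 0.067 and 119.8. Tnfrsf9 rose to 159 FPKM (6.54). With PI3Kdi 3 were higher (Il7r, Id2 and Bcl2) and 7 lower, beside 3.04% and 2.1% of all genes, led by Lta (277 to 31.7 FPKM, -3.19), Gzmb (3147 to 379, -3.08) and Tnfrsf9 (159 to 23.1, -2.80), with a list median of -0.08. In CTL without IL-2, 4 were called higher and 15 lower, beside 14.3% and 13.9% of all genes, with a median of -1.38 beside 0.00 over all genes. Bcl6, 1 of the 4, was under 1 FPKM in every library with IL-2. It may be in the table through the group without IL-2, which was not tested. The 4 largest changes were Lif, Tcf7 (15.3 to 599 FPKM, 5.32), Tnfrsf9 (213 to 5.52, -5.24) and Gzmb (10277 to 428, -4.63). Against naive cells, cells activated with PI3Kdi had 14 of these genes called higher and 6 lower, the receptor subunits 5 and 11 and the other components 3 and 10, where 23.6% of all genes were called higher and 21.3% lower. Sh2b2, Il2ra, Lif, Ifng, Gzmb and Prdm1 were under 1 FPKM in every naive library. Their rows may be in the table through the activated groups, so their levels are given as values alone. With PI3Kdi their means were 1.97, 563, 56.5, 32.4, 379 and 3.61 FPKM. The largest other changes were in Pim2 (2.40), Sh3kbp1 (-2.38) and Jak1 (-2.02) among the components. Among the receptors they were in Il12rb2 (5.73), Il12rb1 (3.46) and Il6ra (-3.35). Ltb (lymphotoxin β) fell from 488 to 23.7 FPKM (-4.39), and Il21 and Il10 were blank in naive cells and at means of 14.4 and 6.51 FPKM with PI3Kdi.

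Genes whose profile was most like that of a feedback gene were sought over 9625 genes with a mean of at least 1 FPKM in both tables, by Pearson r of log2(FPKM + 0.1) over the 15 libraries after centring each table. For Cish these were Scarb1, 1300001I01Rik and Lif (each r = 0.997). Lif followed Cish in direction, from 0.067 to 119.8 and 56.5 FPKM across the CD8 groups and from 90.6 to 1.71 in CTL. For Socs1 they were Ccrn4l (0.96), Pcx (0.96) and Tuba4a (0.95), and for Socs2 Gnaq (0.97), Ly6a (0.97) and Nfx1 (0.97). Nfx1 did not share the fall of Socs2 in CTL, at means of 28.3 FPKM with IL-2 and 27.6 without. Gnaq (9.31 and 5.43) and Ly6a (1355 and 820) were lower without IL-2. For Socs3 the highest values were lower, at 0.85 for Ubxn1, 0.83 for Pigs and 0.83 for Neurl4. Among the members Cish correlated with Socs2 at 0.87 and with Socs1 at 0.79 and inversely with Stat4 at -0.88, Stat4 and Stat5b at 0.91, and Socs3 with no member above 0.58. These are descriptions over libraries that fall into 5 groups and share normalisation within a table.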

How the data were processed

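The authors deposited 2 tables of FPKM values, rounded to 2 decimals: reads were aligned to mm10 with STAR 2.5.2b and counted with Subread 1.5.1 per the labels, filtered with filterByExpr, scaled by TMM in edgeR and divided by summed exon length. For the CTL table the same steps were assumed. Of the CD8 values 1.03% were blank and taken as 0. With FPKM alone to hand, values were tested on the log2(FPKM + 0.1) scale, which understates changes of low genes.

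Fits used limma 3.58.1 in R 4.3.3 with an intensity trend and group as the only term, one fit per table (9 and 6 libraries), Benjamini-Hochberg adjusted over all 11262 or 11211 genes, and were tested on simulated data. Other steps used Python 3.11.15, numpy 2.4.6 and scipy 1.17.1. A gene was called at adjusted p under 0.05 and a fold above 2 or below 0.5. The members and gene lists were chosen with earlier results of these data known. All members were named in every comparison, Il2, Il2ra, Il2rb, Il2rg, Il7r and Pim2 always, and otherwise the 4 called genes with the largest change per list and comparison, plus the 3 genes closest in profile to Cish, Socs1, Socs2 and Socs3; further genes were named where a count was small. No table column was left unused.

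Replicate pools were divided between conditions, so replicate numbers pair the CD8 samples; same-numbered deviations correlated at 0.20 to 0.51 between activated groups, at a mean of -0.03 between naive and activated cells, and at 0.12 to 0.26 in CTL. Alternatives changed the pseudocount (1, 0.01), a filter at a mean FPKM of 1, scaling by medians, the variance trend, the block, the groups fitted, the fold limit (1.5, none) and the replicates. Promoter windows came from RefSeq (GRCm38.p6); 9 of 10 members matched.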

Additional observations from a re-analysis of the deposited data

How the results depend on the processing

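Of 100 member values recomputed under the alternatives in TCR activated against naive cells 95 kept their direction and their call, as did 99 of 100 with PI3Kdi against activation, 96 of 100 with PI3Kdi against naive cells and 89 of 90 in CTL. A call here joins the adjusted p with the 2-fold limit. By adjusted p alone more values crossed 0.05, among them Cish, Stat3, Pim1 and Stat5b with PI3Kdi against activation. The calls that changed were Stat4 on activation (-0.91 without replicate 1) and Socs1 with PI3Kdi against naive cells (1.01 without replicate 3). The reversals were all in uncalled values. On activation the log2 fold change of Stat5b was 0.0040 with median scaling, and leaving out single replicates gave -0.23 to 0.41 for Socs3, -0.090 to 0.014 for Stat5b and -0.55 to 0.10 for Jak3. With PI3Kdi against activation the ranges were -0.21 to 0.094 for Socs3, -0.13 to 0.023 for Pim2 and -0.095 to 0.15 for Il2ra. With PI3Kdi against naive cells they were -0.13 to 0.27 for Socs3 and -0.28 to 0.15 for Jak3, and in CTL -0.13 to 0.12 for Socs3.

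With no fold limit the genes called numbered 9096 instead of 5489 for activation, 1975 instead of 579 for PI3Kdi against activation, 8906 instead of 5063 for PI3Kdi against naive cells and 8056 instead of 3166 in CTL, and the members called 7, 8 and 9 instead of 2, 4 and 5 in the last 3 of these. A limit of 1.5-fold gave 1120 genes and 4 members for PI3Kdi against activation and 5657 genes in CTL. For PI3Kdi against activation a pseudocount of 1 gave 311 genes, and leaving out single replicates gave 323 to 574, the lowest without replicate 2; the cause was not tested. With the replicate block 5495, 591, 5071 and 3168 genes and 5, 2, 4 and 5 members were called, and apart from the adjusted p of Cish with PI3Kdi the pairing changed no member call. The median of all genes moved by under 0.1 with median scaling. Low values limit Socs2 in naive cells. The alternatives for single lists, the Stat5a to Stat5b ratio and the counting interval were chosen after seeing the data.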
